A study of Mus musculus with 10 samples.

Results

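Complement is a cascade of plasma and tissue proteins that marks cells and debris for uptake and recruits leukocytes. C1q binds to its targets and starts the classical pathway, in which C4 and C2 form an enzyme that cleaves C3. Factor B amplifies this step in the alternative pathway, and the small fragments released from C3 and C5 act on leukocytes through the receptors C3aR and C5aR1. In tumors, macrophages are a known source of C1q, while C3 and C4 are also made by epithelial cells and fibroblasts.

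Here 9 genes of this system, taken by name from the 17864 genes of the deposited count table, were compared between tumors with and without a guide RNA against the gene of TAZ. They were the C1q subunit genes C1qa, C1qb and C1qc, the classical pathway genes C4b and C2, the central component C3, Cfb, which encodes factor B, and the receptor genes C3ar1 and C5ar1. All 9 were in the table and all 9 passed the filter on low counts.

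The tumors were grown in the mammary fat pad of female mice, 6 to 8 weeks old, from the mouse mammary carcinoma line 4T1, and RNA of the whole tumor was sequenced. The 5 sgCon tumors came from Cas9-carrying cells with a control guide RNA, and the 5 sgTaz tumors from Cas9-carrying cells with a guide RNA against Wwtr1, which encodes TAZ, so that Cas9 was shared by both groups. The study's methods name BALB/c mice and immune deficient SCID mice as hosts of 4T1 cells. The labels give neither which of these carried the 10 tumors nor whether the edited cells were 1 clone. The study describes SCID mice as lacking functional adaptive immunity. In the 10 tumors the 5 T cell markers described below summed to between 62.5 and 533 CPM. The 5 B cell markers summed to between 54.1 and 658 CPM in sgCon and between 0.891 and 136 CPM in sgTaz tumors. The host was not tested further. Nothing in the labels says that the replicates came from separate mice, and the p-values below measure the spread between these 10 samples. Total counts ranged from 14753922 to 19595821 for sgCon and from 12185383 to 18395558 for sgTaz.

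Levels are given as CPM, the depth-scaled count of a gene after division by the TMM-normalized library size, and in the order of replicate numbers 1 to 5. Wwtr1 was at 192, 181, 115, 171 and 156 CPM in the sgCon tumors and at 86.6, 104, 110, 139 and 102 CPM in the sgTaz tumors. Its transcript was lower on average but still present in every sgTaz tumor, and the groups overlapped through sgCon tumor 3 and sgTaz tumor 4. The log2 fold change was -0.59 ± 0.15 (SE, adjusted p = 0.096 by edgeR's quasi-likelihood test and 0.0151 by DESeq2).

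The label of the cells is tumor cell, and the 6 markers of tumor epithelium were present in every tumor, with a summed level between 1529 and 4561 CPM. Krt8 and Krt18 were the most abundant of them in the mean. The gene said to lead a list of markers is the one with the highest mean over the 10 tumors, which was not the highest in every tumor for each list. Markers of other cells were present as well, since whole tumors were taken. Markers of lymph node stroma set sgTaz tumor 5 apart. Their summed level was 388 CPM in this tumor and 2.16, 3.68, 9.86 and 14.3 CPM in sgTaz tumors 1 to 4, where the sgCon tumors were at 146, 169, 778, 42.4 and 282 CPM. One of them, Glycam1, an adhesion molecule of lymph node vessels, was at 237 CPM in sgTaz tumor 5, at 0.243 CPM in sgTaz tumor 4 and at 0 in sgTaz tumors 1 to 3. Glycam1 led this list through sgTaz tumor 5, since in the sgCon mean Ccl21a was above it, at 109 against 107 CPM. Medians of marker lists are therefore also given without sgTaz tumor 5.

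None of the 9 genes passed an adjusted p of 0.05 in edgeR's quasi-likelihood test, where 0.00675% of 14816 genes tested did so as higher in sgTaz tumors, a single gene. At an unadjusted p below 0.05 the same test gave 3 of the 9, C1qc, C4b and C3ar1, where the share of all genes was 9.86%. DESeq2, the tool of the study's methods, called C4b, 1 of the 9, where it called 3.28% of 16075 genes as higher. Limma-voom with sample quality weights called C4b and C3ar1, 2 of the 9, where it called 4.63%. The edgeR log2 fold change was above 0 for 9 of 9 members and for 47.0% of all genes tested. It was above 0 for 7 of 9 without sgTaz tumor 5, C2 and C3 being the exceptions. The median over the 9 was 0.32, and 0.31 without sgTaz tumor 5, where the median of all genes was -0.019. Single sgCon tumors moved the median over the 9 further, to 0.22 without sgCon tumor 5 and to 0.53 without sgCon tumor 4. These were the lowest and highest medians among the fits that dropped a single tumor. Limma-voom gave a median of 0.46 over the 9. In none of the 9 did all sgTaz tumors lie above all sgCon tumors, which was so for 2.44% of all genes tested.

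Per length of transcript, the C1q subunits and C3 were the most abundant of the 9. On the scale of CPM per kilobase of exon, C1qa was at 379 ± 141 (SD, n = 5) in sgCon and 473 ± 46.8 (SD, n = 5) in sgTaz tumors. C1qb followed at 186 ± 63.2 and 257 ± 37.6. C3, at 123 ± 44.0 and 143 ± 52.0, and C1qc, at 105 ± 35.2 and 147 ± 23.8, exchanged places between the groups and did not differ beyond their spread. The next in order was C4b, at 39.0 ± 7.49 and 64.0 ± 10.8, and then C3ar1, at 15.9 ± 5.18 and 24.6 ± 4.16. Cfb, at 9.88 ± 2.77 and 10.99 ± 1.71, and C5ar1, at 9.56 ± 2.71 and 11.4 ± 1.44, could not be ordered either. C2 was the lowest at 2.78 ± 0.912 and 2.88 ± 0.823. Without division by length, C3 was above C1qa in the mean of each group. Exon length is that of all annotated exons of a gene, which may be longer than the transcript in use.

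C1qa, C1qb and C1qc encode the 3 chains that assemble into C1q. They are neighbours on chromosome 4 of mm10, all on the minus strand, with C1qb (ENSMUSG00000036905.8) from 136880129 to 136886187, C1qc (ENSMUSG00000036896.5) from 136889804 to 136893065 and C1qa (ENSMUSG00000036887.5) from 136895917 to 136898803. No stretch of 50 bases was shared between their transcripts, so that their counts can be read separately.

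C1qa was at 307, 438, 396, 608 and 220 CPM in sgCon tumors and at 562, 429, 498, 469 and 501 CPM in sgTaz tumors. The sgCon tumors were widely spread and held both the highest and the lowest value, with all 5 sgTaz tumors between them. Between the groups, C1qa had a log2 fold change of 0.32 ± 0.22 (SE, edgeR, adjusted p = 0.408), and an exact two-sided permutation test of the 10 tumors gave p = 0.183.

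C1qb was at 172, 235, 196, 297 and 114 CPM in sgCon and at 319, 212, 276, 298 and 294 CPM in sgTaz tumors. C1qc was at 169, 244, 188, 294 and 118 CPM in sgCon and at 285, 208, 301, 331 and 298 CPM in sgTaz tumors. For both genes, sgCon tumor 4 lay among the sgTaz tumors and sgTaz tumor 2 among the sgCon tumors, while sgCon tumor 5 was the lowest. The log2 fold change of C1qb was 0.46 ± 0.21 (SE, edgeR, adjusted p = 0.234), with p = 0.0714 in the exact permutation test. That of C1qc was 0.49 ± 0.21 (SE, edgeR, adjusted p = 0.213), with p = 0.0635 in the exact permutation test. Neither passed the threshold in DESeq2 or in limma-voom.

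The proportion of the 3 subunits was kept within narrow limits from tumor to tumor. C1qa held between 42.7% and 50.8% of the counts of the 3 genes, C1qb between 24.8% and 27.4%, and C1qc between 24.1% and 30.1%. The sum of the 3 ranged from 6605 counts in sgCon tumor 5 to 21602 in sgCon tumor 4, so that counting error was small beside the spread between tumors. The lowest share of C1qa and the highest of C1qc were both in sgTaz tumor 4.

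The promoters of C1qb, C1qc and C3ar1 are shown because C1qc followed C1qb and C3ar1 across tumors, as described below, and is the only one with motif matches. The sequences are RefSeq's (GRCm38.p6). In the promoter table used here 5 of the 9 genes were matched, the others being C5ar1 and C3. Each is the 250 bases before the start site, read from 5′ to 3′ on the minus strand, with motif matches in capitals. They lie at chr4:136886201-136886450, chr4:136892915-136893164 and chr6:122856158-122856407, in this order.
C1qb: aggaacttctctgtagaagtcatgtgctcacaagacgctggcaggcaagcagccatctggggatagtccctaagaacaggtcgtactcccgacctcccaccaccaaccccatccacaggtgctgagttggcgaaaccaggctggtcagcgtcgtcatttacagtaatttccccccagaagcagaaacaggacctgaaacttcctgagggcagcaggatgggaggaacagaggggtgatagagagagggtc
C1qc: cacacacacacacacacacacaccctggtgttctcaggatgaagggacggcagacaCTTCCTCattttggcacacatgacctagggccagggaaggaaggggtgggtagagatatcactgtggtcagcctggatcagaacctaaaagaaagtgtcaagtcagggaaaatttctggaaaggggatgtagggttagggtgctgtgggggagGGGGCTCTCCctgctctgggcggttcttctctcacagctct
C3ar1: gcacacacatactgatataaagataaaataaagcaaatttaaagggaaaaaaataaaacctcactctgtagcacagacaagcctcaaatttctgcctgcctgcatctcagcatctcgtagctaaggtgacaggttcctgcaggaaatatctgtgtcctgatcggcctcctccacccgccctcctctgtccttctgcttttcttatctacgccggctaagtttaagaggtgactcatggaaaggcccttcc

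In these windows 5 motifs were searched on both strands. The motif GAGGAAG, which PU.1, a factor of myeloid cells, can bind, was found in C1qc only, on the strand opposite to the one printed and therefore as the first run of capitals, starting 194 bases before the start site. It was in 10.6% of the 32851 promoters in the table. The kappa B motif, also in C1qc only, is the second run of capitals, starting 41 bases before the start site, and was in 3.90% of all promoters. The start site is RefSeq's, and the GENCODE span given above for C1qc reaches further, to 136893065. The kappa B match therefore lies within that span, and the PU.1 match lies before it. The gamma interferon activation site TTCNNNGAA, in 7.02% of all promoters, the interferon-stimulated response element, in 2.98%, and the motif GGAATG of TEAD factors, the partners of TAZ on DNA, in 12.6%, had no match in any of the 5 windows. A match of letters is a description of these windows and was not compared with binding data.

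C4b (ENSMUSG00000073418.4, chromosome 17 of mm10, 34728380 to 34743882, minus strand) encodes the C4 of the mouse that is cleaved in the classical and lectin pathways. It had the largest fold change and the smallest p of the 9. C4b was at 198, 252.3, 279, 210 and 172 CPM in the sgCon group and at 383, 267, 437, 359 and 374 CPM in the sgTaz group. In 4 of 5 sgTaz tumors C4b was above every sgCon tumor, and sgTaz tumor 2 lay between sgCon tumors 2 and 3. The mean was 222 ± 42.7 CPM (SD, n = 5) against 364 ± 61.7 CPM (SD, n = 5), a 1.64-fold difference.

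The log2 fold change of C4b was 0.71 ± 0.15 (SE). Its adjusted p was 0.0874 in edgeR's quasi-likelihood test, 0.00153 in DESeq2 and 0.0197 in limma-voom, and the exact permutation test gave p = 0.0159, so that the call depended on the test. Leaving out each tumor in turn gave log2 fold changes from 0.63 to 0.81 and adjusted p from 0.0428 to 0.233 in edgeR, below 0.05 only without sgTaz tumor 2. C4b counts may include reads of C4a, a neighbouring gene close in sequence, since 35.2% of all 50-base stretches of the C4b transcript are also found in C4a. Counts assigned to C4a were between 1.24% and 2.27% of both genes together, and the sum of both was not called by edgeR either. C4a itself was at 4.09 ± 0.345 CPM (SD, n = 5) in sgCon and 6.46 ± 2.08 CPM (SD, n = 5) in sgTaz tumors, with a log2 fold change of 0.66 ± 0.23 (SE, edgeR, adjusted p = 0.153).

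C2 (ENSMUSG00000024371.14, chromosome 17 of mm10, 34862604 to 34898265, minus strand) encodes the protease that joins C4 in the classical C3 convertase. It was the least abundant of the 9, with 106 to 266 counts in a tumor. In sgCon tumors it was at 10.6, 9.46, 16.6, 7.05 and 10.1 CPM, and in sgTaz tumors at 6.75, 12.4, 9.05, 12.8 and 14.7 CPM. The groups covered nearly the same range, with the highest value in sgCon tumor 3 and the lowest in sgTaz tumor 1. C2 had a log2 fold change of 0.048 ± 0.25 (SE, edgeR, adjusted p = 0.931), and it was below 0 without sgCon tumor 4, without sgTaz tumor 4 and without sgTaz tumor 5.

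Within a tumor, the log2 ratio of C2 to C4b was -4.39 ± 0.38 (SD, n = 5) for sgCon and -5.05 ± 0.60 (SD, n = 5) for sgTaz. A difference of -0.66 did not pass an exact two-sided permutation test (p = 0.0794, adjusted p = 0.106 over 4 ratios).

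C3 (ENSMUSG00000024164.15), on the minus strand of chromosome 17 from 57203970 to 57228136, encodes the component on which all pathways converge. It was at 562, 643, 972, 341 and 642 CPM in sgCon tumors and at 490, 615, 669, 704 and 1189 CPM in sgTaz tumors. Most tumors of both groups were close together, while sgTaz tumor 5 and sgCon tumor 3 stood above and sgCon tumor 4 below. For C3, the log2 fold change was 0.21 ± 0.28 (SE, edgeR, adjusted p = 0.680), with p = 0.508 in the exact permutation test. This log2 fold change was -0.027 without sgTaz tumor 5 and 0.43 without sgCon tumor 3. The tumors highest in C3 were the same that were highest in lymph node stroma markers, sgCon tumor 3 at 778 CPM and sgTaz tumor 5 at 388 CPM in sum, and the part of such tissue in the C3 level was not tested.

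Cfb (ENSMUSG00000090231.10, chromosome 17, 34856374 to 34862518, minus strand), next to C2, encodes factor B, the protease of the alternative pathway. It was at 27.4, 30.3, 39.9, 20.4 and 21.6 CPM in sgCon tumors and at 33.6, 23.6, 30.4, 31.0 and 36.6 CPM in sgTaz tumors. All sgTaz tumors lay within the range of the sgCon tumors. For Cfb, the log2 fold change was 0.15 ± 0.18 (SE, edgeR, adjusted p = 0.660), and the exact permutation test gave p = 0.381.

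The values of C2 and Cfb may be uncertain, because the GENCODE M21 annotation, used here for names and coordinates, holds a read-through gene, Gm20547, over both on the same strand. It shares 2246 of the 2825 exon bases of Cfb (79.5%) and 1656 of the 3872 exon bases of C2 (42.8%), and had no row among the counts. Whether the annotation the reads were counted with, given as another GENCODE version, held this gene is not given in the sources used here. If it did, reads that match several genes may not have been counted.

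C3ar1 and C5ar1 encode the receptors of the fragments C3a and C5a, both found on myeloid cells. C3ar1 (ENSMUSG00000040552.8, chromosome 6 of mm10, 122847138 to 122856161, minus strand) was at 68.2, 93.6, 58.6, 84.9 and 37.1 CPM in sgCon tumors and at 94.5, 83.2, 120, 127 and 106 CPM in sgTaz tumors. As with C4b, 4 of 5 sgTaz tumors were above every sgCon tumor and sgTaz tumor 2 was not, since sgCon tumors 2 and 4 exceeded it. The mean was 68.5 ± 22.3 CPM (SD, n = 5) against 106 ± 17.9 CPM (SD, n = 5), a 1.55-fold difference. The log2 fold change of 0.63 ± 0.22 (SE) had an adjusted p of 0.144 in edgeR, 0.0583 in DESeq2 and 0.0475 in limma-voom, and the exact permutation test gave p = 0.0317.

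C5ar1 (ENSMUSG00000049130.6, chromosome 7 of mm10, 16246743 to 16259540, minus strand) was at 20, 34.2, 18.3, 29.7 and 20.7 CPM in sgCon tumors and at 27.0, 24.2, 33.8, 30.6 and 30.9 CPM in sgTaz tumors. The highest and the lowest tumor were both sgCon tumors, numbers 2 and 3. For C5ar1, the log2 fold change was 0.25 ± 0.18 (SE, edgeR, adjusted p = 0.424), with p = 0.175 in the exact permutation test.

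The balance of both receptors was compared within each tumor, which does not depend on library size. The log2 ratio of C3ar1 to C5ar1 was 1.76, 1.45, 1.67, 1.51 and 0.84 in sgCon tumors and 1.80, 1.78, 1.83, 2.05 and 1.77 in sgTaz tumors. No sgTaz tumor was as low as any sgCon tumor, though sgCon tumor 1 missed the lowest sgTaz tumor by little, and sgCon tumor 5 was far below. The difference of 0.40 passed an exact two-sided permutation test (p = 0.00794, the smallest that 5 against 5 allows, adjusted p = 0.0317 over 4 ratios). Without sgCon tumor 5 the difference was 0.25. With any 1 sgTaz tumor left out the difference was between 0.35 and 0.42, about as large. The adjusted p of the same test then rose to between 0.0794 and 0.159. This ratio was picked with earlier results of these data known.

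**Figure D1:**
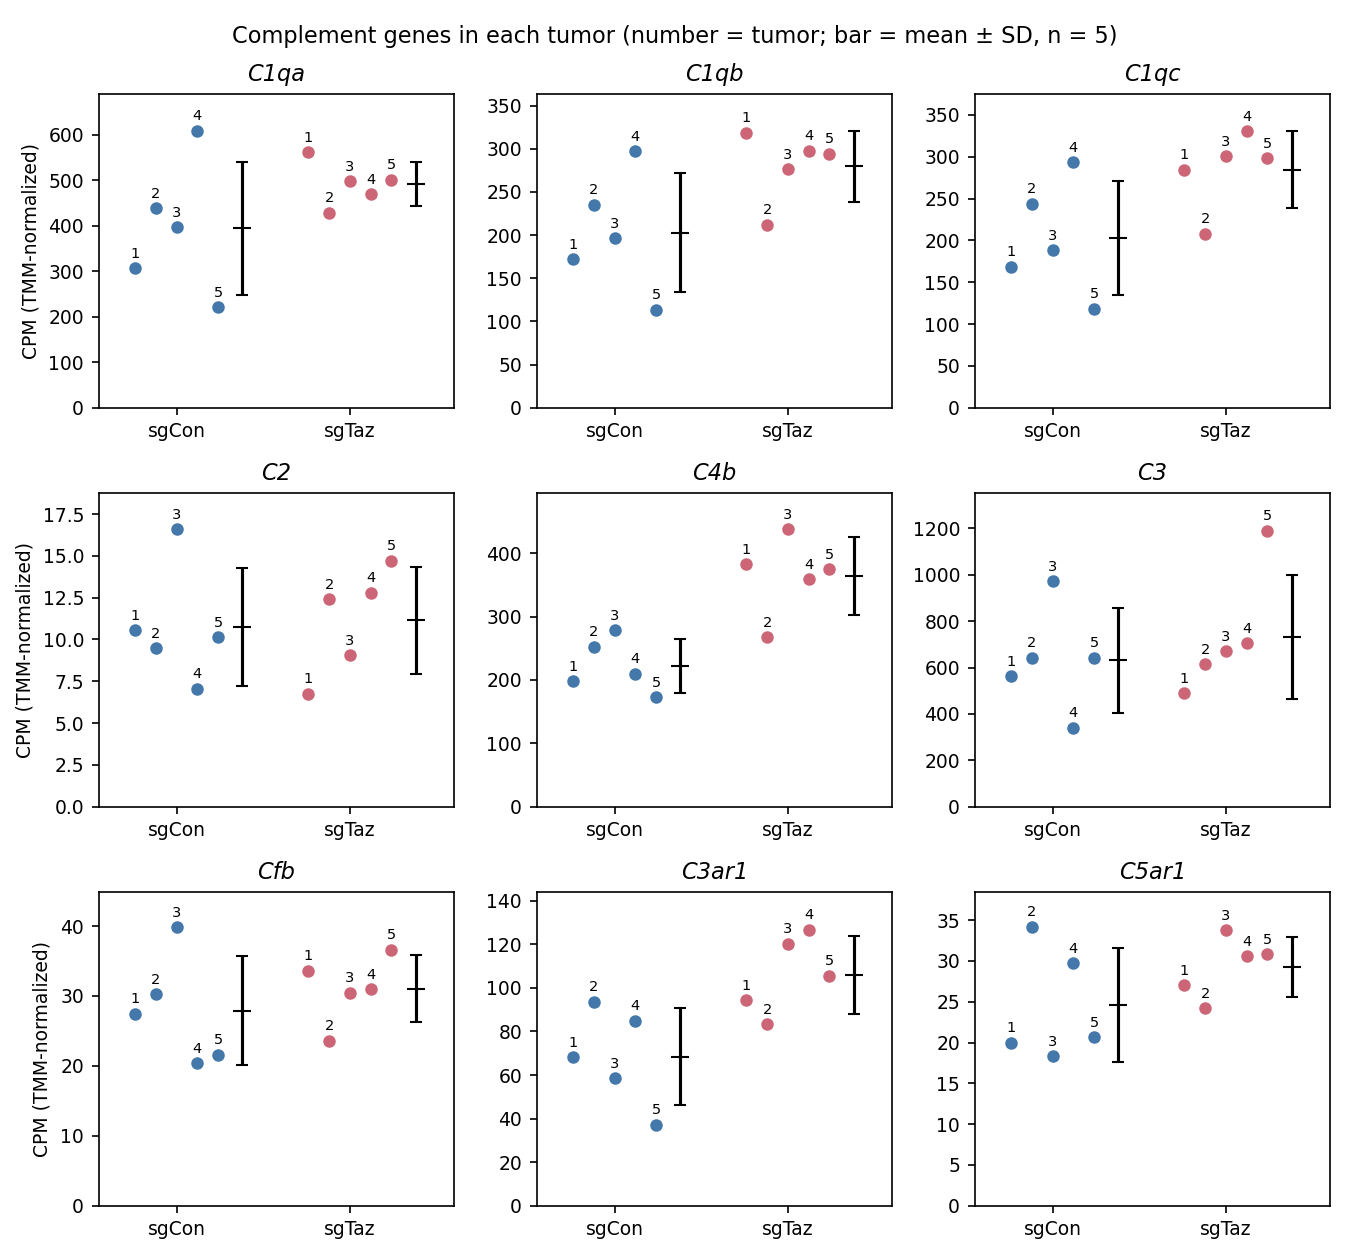
Level of each of the 9 genes (CPM, vertical axis of each panel) in the 5 sgCon and 5 sgTaz tumors, 1 numbered point for each tumor, with a bar for the mean ± SD of each group. In C4b and C3ar1, 4 of the 5 sgTaz tumors lie above every sgCon tumor, and in the other 7 genes at most 3 do.

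Some tumors were high or low in many of the 9 genes at once. SgCon tumor 5 was the lowest of the 10 tumors for 5 members (C1qa, C1qb, C1qc, C4b and C3ar1). SgTaz tumor 5 was among the highest 3 for 8 members, all except C1qb. SgCon tumor 4 had the highest C1qa of all tumors but the lowest C3 and the lowest Cfb, so that the members did not share 1 order of tumors.

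Relations between members were computed over the 10 tumors after the group means were taken off, for all 36 pairs. Pearson's r was positive in 25, and in 4 pairs its adjusted p from exact permutation within groups was below 0.05, while no pair was below 0.05 for Spearman's rho after adjustment. C1qb and C1qc gave r = 0.971 (exact permutation p = 0.00111, adjusted p = 0.020) and rho = 0.879 (exact permutation p = 0.00833, adjusted p = 0.10). C1qa and C1qb gave r = 0.963 (exact permutation p = 0.000625, adjusted p = 0.020) and rho = 0.903 (exact permutation p = 0.00521, adjusted p = 0.0938). These 2 pairs of C1q subunits had the highest r of all 36, and r was 0.910 and 0.852 once the 2 farthest tumors had been left out.

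C1qc and C3ar1 gave r = 0.912 (exact permutation p = 0.00264, adjusted p = 0.0317) and rho = 0.915 (exact permutation p = 0.00257, adjusted p = 0.0925), with r = 0.837 without the 2 farthest tumors. The fourth pair was C1qa and C1qc, with r = 0.909 (exact permutation p = 0.00486, adjusted p = 0.0437), rho = 0.758 (exact permutation p = 0.0558, adjusted p = 0.223) and r = 0.684 without the 2 farthest tumors. C3 with C1qa gave r = -0.356 (exact permutation p = 0.396, adjusted p = 0.594) and rho = -0.103 (exact permutation p = 0.807, adjusted p = 0.937). Its r turned to 0.121 without the 2 farthest tumors, so the negative sign rests on them. C3 with C2 gave r = 0.865 (exact permutation p = 0.00736, adjusted p = 0.053) and rho = 0.685 (exact permutation p = 0.0462, adjusted p = 0.208), with r = 0.79 once the 2 farthest were left out.

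**Figure D2:**
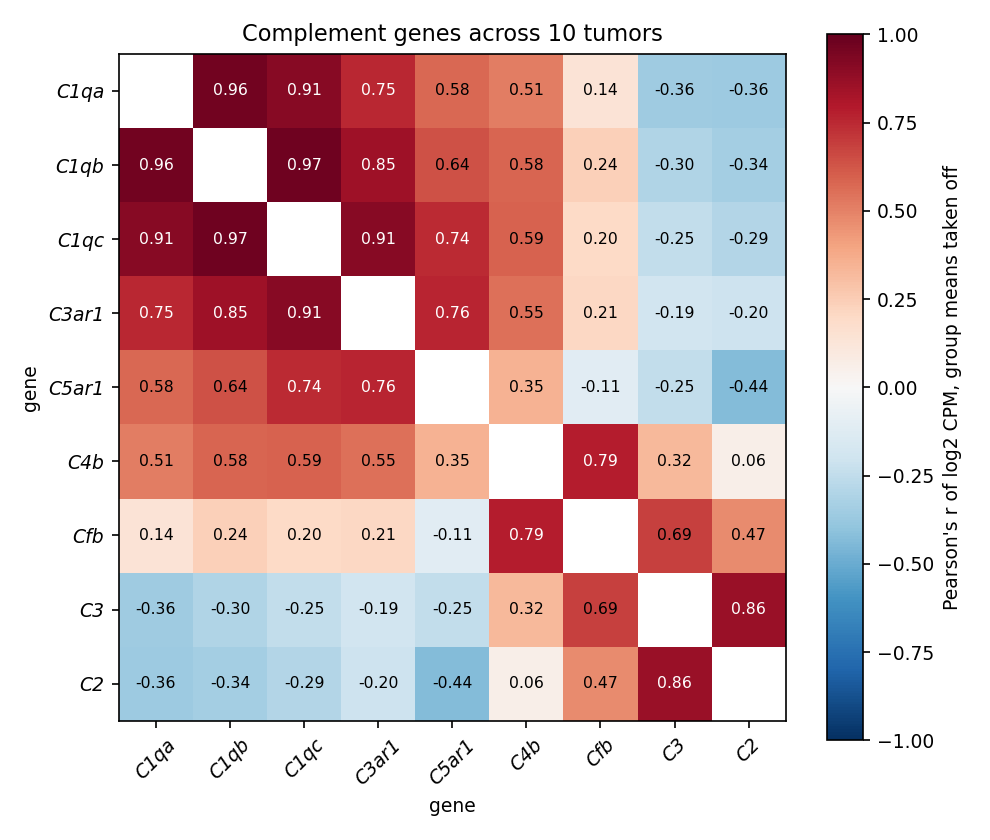
Pearson's r between the log2 CPM of each pair of the 9 genes over 10 tumors, group means taken off, as a colour from -1 to 1. The 3 C1q subunits and C3ar1 lie between 0.753 and 0.971 with each other, of which C1qa with C3ar1 (0.753) was 0.324 without the 2 farthest tumors.

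The genes whose levels followed a member most closely were searched among 11538 genes with at least 5 CPM on average, by Pearson's r over the same 10 tumors with the group means taken off. For C1qa they were Il20rb (r = 0.987), Trem2 (0.982), a receptor of macrophages, Tmem106a (0.970), Slc6a2 (0.965) and C1qb (0.963). For C5ar1 they were Mdfic (0.972), Rab20 (0.954), Osgin2 (0.936), B230354K17Rik (0.934) and Megf6 (0.929). For C3 they were Irf4 (0.977), a transcription factor of lymphocytes and myeloid cells, Stk26 (0.971), Setbp1 (0.970), Tespa1 (0.967), a gene of T cell receptor signaling, and Dennd5b (0.965). For C2 they were Txnip (0.942), Car2 (0.935), Kdm4c (0.932), Ehd3 (0.931) and Zbtb4 (0.930). The neighbours of C1qa and of C3 were thus different genes. With 10 tumors and so many genes, high values are found in any search of this kind, and these are a description.

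Macrophage markers, like C1q and C3ar1, were higher on average in sgTaz tumors. The summed level of 12 markers was 2734, 4495, 3914, 4621 and 2362 CPM in sgCon tumors and 4272, 3716, 4836, 4984 and 5191 CPM in sgTaz tumors, led by Apoe, and none of the 12 was at 0 in all tumors. SgCon tumors 1 and 5 were the lowest in this sum, and the groups overlapped. Of the 12, all had a positive log2 fold change, with a median of 0.49, and 0.46 without sgTaz tumor 5. DESeq2 called 4 of them as higher, among them Adgre1, Csf1r and Mrc1, and edgeR called 0, with 5 at an unadjusted p below 0.05 (3.28% of all genes in DESeq2 and 9.86% in edgeR unadjusted). A difference in the number of cells of a type and a difference in RNA per cell cannot be told apart in whole tumors.

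**Figure D3:**
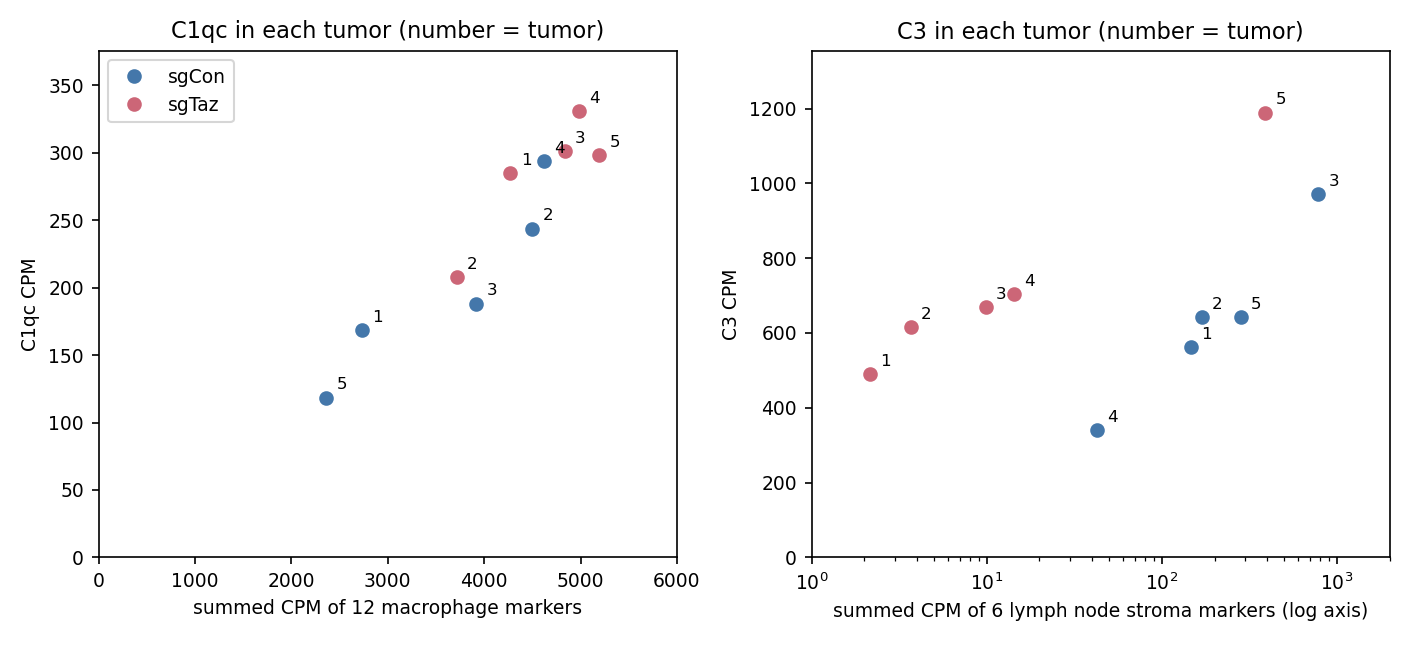
Level of C1qc (CPM) against the summed level of 12 macrophage markers (CPM, left) and level of C3 against the summed level of 6 lymph node stroma markers (CPM, log axis, right), 1 numbered point for each tumor. SgCon tumors 1 and 5 are lowest in both C1qc and macrophage markers, and sgCon tumor 3 and sgTaz tumor 5 are highest in both C3 and lymph node stroma markers.

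The members were also set against the mean log2 CPM of these 12 markers in the same tumor. The difference between sgTaz and sgCon tumors on this scale was -0.20 for C1qa, -0.073 for C1qb, -0.053 for C1qc, 0.089 for C3ar1 and -0.31 for C5ar1. C4b was 0.12 higher by this measure, from 1.26 ± 0.35 (SD, n = 5) to 1.38 ± 0.23 (SD, n = 5). C3, Cfb and C2 were lower, by differences of -0.37, -0.41 and -0.54. No test was made of these differences, and the part of macrophages in the levels of the members was not tested.

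Markers of neutrophils and lymphocytes were lower on average in sgTaz tumors. The 7 neutrophil markers past the filter, led by Mmp9, all had negative log2 fold changes, with a median of -0.95 (-1.25 without sgTaz tumor 5) and 0 calls by edgeR (4 lower at an unadjusted p below 0.05, as were 11.9% of all genes) or DESeq2. The summed level of all 8 neutrophil markers listed was 1065, 1154, 360, 509 and 957 CPM in sgCon tumors and 217, 642, 555, 524 and 651 CPM in sgTaz tumors. Of this sum, Mmp9 alone gave 735, 447, 189, 280 and 600 CPM in sgCon and 149, 533, 381, 350 and 385 CPM in sgTaz tumors. The 5 B cell markers, led by Cd79a, and the 5 T cell markers, led by Cd8a, had negative log2 fold changes throughout, with medians of -3.14 and -1.94 (-6.01 and -2.43 without sgTaz tumor 5), and DESeq2 called the T cell genes Cd3d, Cd4 and Cd2 as lower (3.47% of all genes). B cell markers summed to 107, 157, 658, 54.1 and 298 CPM in sgCon tumors and to 0.891, 1.29, 11.1, 2.35 and 136 CPM in sgTaz tumors, which again set sgTaz tumor 5 apart.

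Fibroblast markers, with Col3a1 and Col1a1 the most abundant in the mean, had a median of 0.14, or -0.19 without sgTaz tumor 5, with 5 of 7 above 0 (47.0% of all genes) and Pdgfra called as higher by DESeq2 (3.28% of all genes). The 6 markers of tumor epithelium all had negative values, with a median of -0.48 (-0.46 without sgTaz tumor 5), and Krt14 was called as lower by DESeq2, as were 3.47% of all genes. The 4 adipocyte markers past the filter, led by Lipe, had a median of 1.41 (1.07 without sgTaz tumor 5), and the sum of all 5 listed was 50.5, 60.0 and 67.3 CPM in sgTaz tumors 3, 4 and 5 and at most 31.5 CPM in the others. Monocyte markers (Ccr2 the most abundant, median -0.39, or -0.64 without sgTaz tumor 5, Ly6c2 called as lower by DESeq2), dendritic cell markers (Itgax, median -0.057, or -0.17 without it) and endothelial markers (Pecam1, median 0.21, or 0.12 without it) had changes of both signs or small medians. How much each of these cells gave to a complement gene was not tested.

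Of 45 other complement genes listed by role, 37 were in the table and 30 passed the filter. Of these 30, 15 had a positive and 15 a negative log2 fold change, with a median of -0.0063, and -0.056 without sgTaz tumor 5. EdgeR called 0 in either direction at an adjusted p below 0.05, with 6 higher and 2 lower at an unadjusted p below 0.05, where 9.86% of all genes were higher and 11.9% lower. DESeq2 called 4 as higher (among them C1ra, Masp1 and Itgax) and 2 as lower (Clu and Cpm), where it called 3.28% of all genes as higher and 3.47% as lower.

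**Figure D4:**
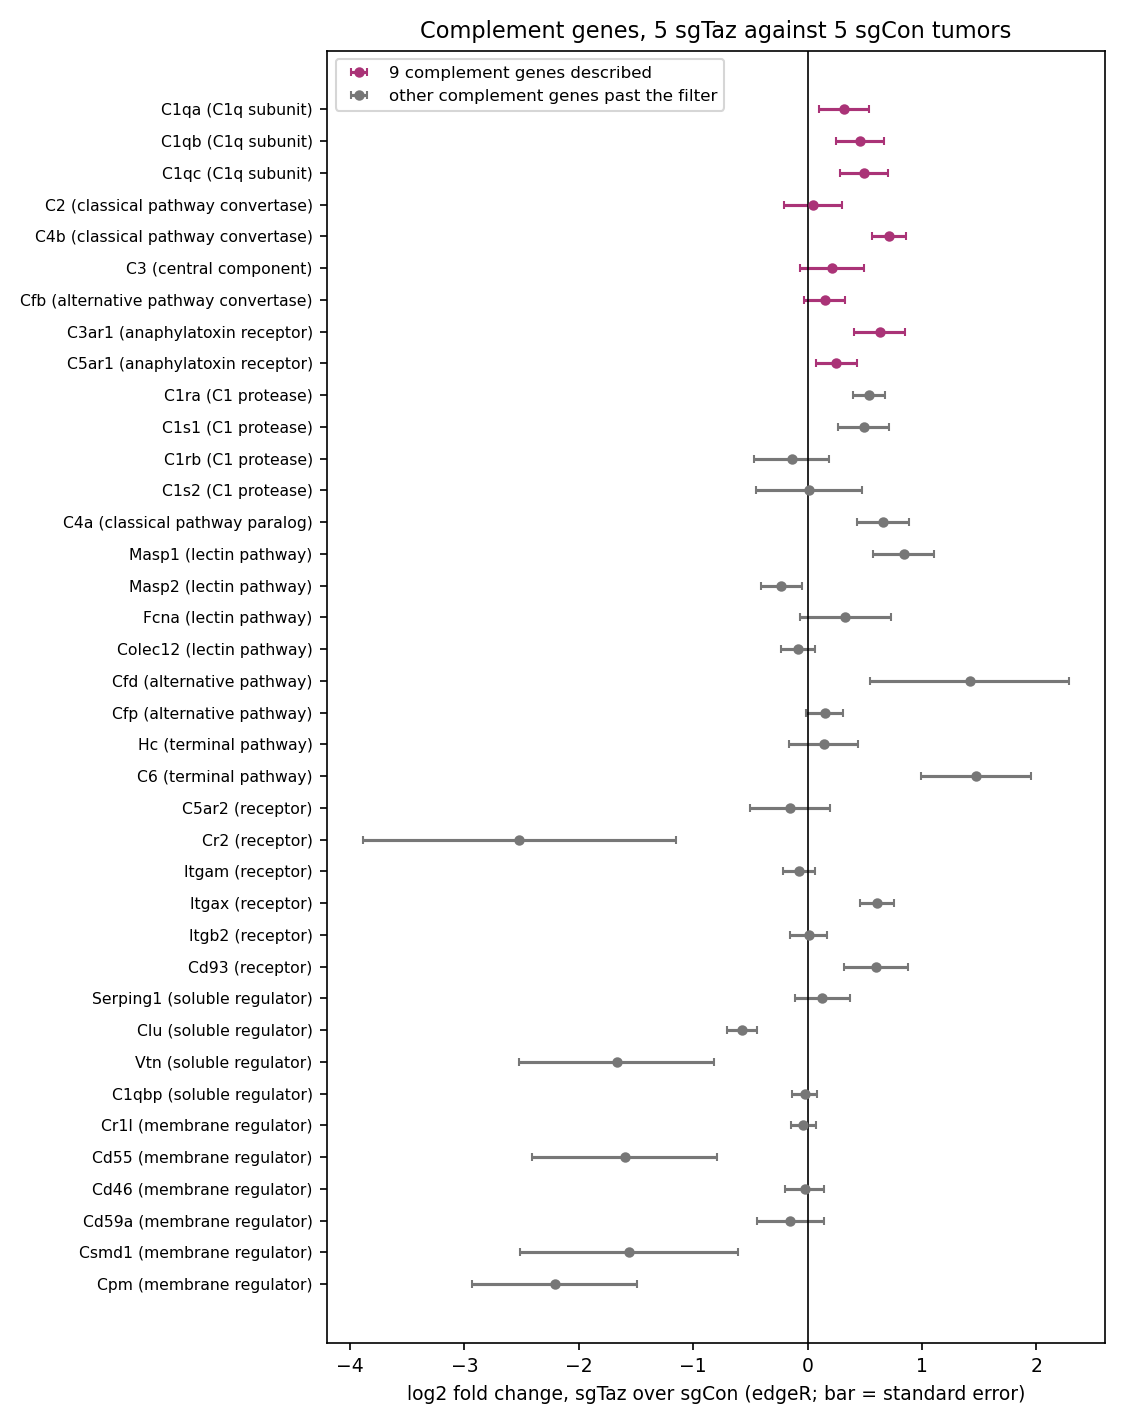
Log2 fold change between 5 sgTaz and 5 sgCon tumors (horizontal axis, edgeR, bars for the standard error) of the 9 genes described and of 29 of the 30 other complement genes past the filter, each with its role. All 9 points are right of 0, with C4b at 0.71 and C3ar1 at 0.63, while the other genes lie on both sides, from Cr2 at -2.52, a value set by sgTaz tumor 5 (-7.20 without it), to C6 at 1.47.

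Among the proteases that start the cascade, C1ra, a subunit of C1, was at 72.0 ± 14.8 CPM (SD, n = 5) in sgCon and 105 ± 14.4 CPM (SD, n = 5) in sgTaz tumors, with a log2 fold change of 0.54 ± 0.14 (SE, adjusted p = 0.0999 by edgeR and 0.0163 by DESeq2). Its partner C1s1, which shares exon bases with an antisense gene and, like C1ra, has a close copy in the mouse genome (C1s2 and C1rb) with which reads could be shared, was at 91.3 ± 35.96 CPM and 128 ± 17.6 CPM (SD, n = 5), and did not pass in either tool. Masp1, a protease of the lectin pathway, was at 34.4 ± 11.7 CPM (SD, n = 5) and 61.6 ± 18.6 CPM (SD, n = 5), with a log2 fold change of 0.84 ± 0.27 (SE, adjusted p = 0.125 by edgeR and 0.0294 by DESeq2).

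Clu, which encodes clusterin, an inhibitor of the terminal complex, was the most abundant of the other complement genes. It was at 598, 395, 542, 406 and 622 CPM in sgCon tumors and at 316, 374, 319, 361 and 356 CPM in sgTaz tumors. All sgTaz tumors were below all sgCon tumors, as for 2.13% of all genes tested. Clu had a log2 fold change of -0.57 ± 0.13 (SE, adjusted p = 0.096 by edgeR and 0.00578 by DESeq2), and the exact permutation test gave p = 0.00794, the smallest possible.

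Itgax, which encodes CD11c, part of the receptor CR4 for cleaved C3 and also a marker of dendritic cells and macrophages, was at 57.9, 64.1, 69.1, 60.1 and 37.4 CPM in sgCon tumors and at 98.7, 69.7, 89.8, 97.0 and 86.9 CPM in sgTaz tumors. It was the only complement gene of either list in which all sgTaz tumors were above all sgCon tumors, as for 2.44% of all genes tested. In sgTaz tumor 2 the margin was less than 1 CPM. Itgax had a log2 fold change of 0.61 ± 0.15 (SE, adjusted p = 0.096 by edgeR and 0.0101 by DESeq2). Itgam and Itgb2, the other integrin chains of complement receptors, had log2 fold changes of -0.073 ± 0.14 (SE) and 0.010 ± 0.16 (SE), that of Itgam being uncertain because another gene shares exon bases with it on the same strand.

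In the terminal pathway, Hc, which encodes C5, was low at 4.42 ± 1.06 CPM (SD, n = 5) in sgCon and 4.89 ± 2.03 CPM (SD, n = 5) in sgTaz tumors. C6 was at 16.7 ± 11.7 CPM (SD, n = 5) and 46.4 ± 16.3 CPM (SD, n = 5), a log2 fold change of 1.47 ± 0.48 (SE, adjusted p = 0.130 by edgeR and 0.0805 by DESeq2). The second C5a receptor gene, C5ar2, was at 1.85 ± 0.698 CPM and 1.66 ± 0.741 CPM (SD, n = 5). The membrane regulator Cr1l, which encodes Crry, was at 68.2 ± 6.22 CPM (SD, n = 5) and 66.6 ± 9.11 CPM (SD, n = 5), with an adjusted p of 0.866 from edgeR.

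A few complement genes were high in the tumors rich in lymph node or fat markers. Cr2, the complement receptor of B cells and follicular dendritic cells and itself 1 of the 6 lymph node stroma markers, was at 10.3, 22.3, 107, 4.83 and 58.5 CPM in sgCon tumors, at 0, 0, 0.804 and 0.162 CPM in sgTaz tumors 1 to 4 and at 34.9 CPM in sgTaz tumor 5. Its log2 fold change was -2.52 ± 1.37 (SE, adjusted p = 0.308 by edgeR), and without sgTaz tumor 5 it was -7.20 (adjusted p = 0.041), a fitted value against tumors at or near 0. Cpm, a carboxypeptidase that inactivates C3a and C5a, was at 1.86, 2.002, 8.55, 1.17 and 3.29 CPM in sgCon tumors and at 0.191, 0.194, 0.536, 0.566 and 2.18 CPM in sgTaz tumors, with a log2 fold change of -2.21 ± 0.72 (SE, adjusted p = 0.130 by edgeR and 0.0302 by DESeq2). Both were highest in sgCon tumor 3, the tumor highest in lymph node stroma markers. Cfd, which encodes factor D, a protease made by fat cells, was at 64.7, 54.4 and 69.3 CPM in sgTaz tumors 3, 4 and 5 and at most 24.4 CPM in the others. These 3 were also the tumors highest in adipocyte markers.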

How the data were processed

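RNA of 10 whole tumors was sequenced by the authors on a HiSeq 2000, mapped to mm10 with STAR in its two-pass mode and GENCODE (v12) gene models, and counted per gene with featureCounts of Subread. The strand setting and the tool versions are not given in the sources used here. The deposited values are raw counts of 17864 genes, of which 17860 were matched to GENCODE M21, the source of names, coordinates and exon lengths. Of the columns, 5 belong to no sample used here and were left out.

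Counts were tested with edgeR 4.0.16 in R 4.3.3 (TMM, filterByExpr by group, glmQLFit, glmQLFTest, Benjamini-Hochberg adjusted p below 0.05 over 14816 genes), with 3048 genes below the filter. DESeq2 1.42.0, limma-voom (limma 3.58.1), RLE size factors, other filters and each tumor left out were alternatives. Log2 CPM used a prior count of 2. Single values, 4 ratios and 36 relations were tested by exact permutation with numpy 2.4.6. The edgeR, DESeq2 and limma-voom fits were tested on simulated data.

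The members, the lists and the ratios were chosen with earlier results of these data known. Named are the 9 members, Wwtr1, other complement genes with non-overlapping groups or an unadjusted p below 0.05 or of a member's family, and the most abundant marker of each list with those called by DESeq2. Cfd, Cr2, Itgam, Itgb2 and C1s1 were named after their values were seen. Some genes, and 1 of the 4 ratios, are not reported here. Any 2 tumors of a group differed by more than sampling noise.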

Additional observations from a re-analysis of the deposited data

Results flagged for a closer look

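The log2 ratio of C3ar1 to C5ar1 was 2.05 in sgTaz tumor 4, far from the other sgTaz tumors, which were between 1.77 and 1.83. The gap was 0.786 of the range of the group. Of 26 groups of 5 tumors examined, 1 held such a value, where chance gives about 1 in 20, or 1.3.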

How the results depend on the processing

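C4b was called by DESeq2 (log2 fold change 0.73) and limma-voom (0.83), C3ar1 by limma-voom (0.75), and with each tumor left out C4b ranged from 0.63 to 0.81. C2 ranged from -0.071 to 0.26 with each tumor left out (-0.071 without sgTaz tumor 5, -0.070 without sgCon tumor 4, -0.0045 without sgTaz tumor 4) and C3 from -0.027 to 0.43. C1qa ranged from 0.17 (without sgCon tumor 5) to 0.53 (without sgCon tumor 4), C1qb from 0.31 to 0.64, C1qc from 0.35 to 0.66, C3ar1 from 0.47 to 0.77, Cfb from 0.06 (without sgCon tumor 4) to 0.32 (without sgCon tumor 3) and C5ar1 from 0.16 (without sgCon tumor 3) to 0.40 (without sgCon tumor 2). The difference between the groups (sgTaz minus sgCon) in the log2 ratio of C1qa to C3 was 0.17 (exact permutation p = 0.722, adjusted p = 0.722), -0.046 without sgCon tumor 5 and -0.0097 without sgTaz tumor 1. With each tumor left out, this difference ranged from -0.046 to 0.55, and the same difference for the log2 ratio of C3ar1 to C5ar1 from 0.25 to 0.48. Genes higher in sgTaz tumors were 1 in edgeR, 527 in DESeq2, 686 in limma-voom, 4 with at least 10 counts in every tumor, 0 without a filter (1759 at an unadjusted p below 0.05) and 0 to 42 with each tumor left out. Genes lower were 0 (1765 unadjusted), 558, 860, 1 with at least 10 counts and 0 to 130 with each tumor left out. Both counts were largest without sgTaz tumor 5 (42 and 130), followed by sgTaz tumor 2 (40 and 35). The cause of these changes was not tested. Same-numbered tumors shared only a number (correlations of their deviations from -0.243 to 0.221, with 1 of 10 tumors correlating best with its own number), and a replicate block gave 0 genes higher and 0 lower (1064 and 1398 unadjusted), and C4b at 0.72. RLE size factors left every member on its side of the threshold.

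With 5 tumors in each group, p-values in the exact test cannot go below 0.00794. C2, with 106 to 266 counts, is the shallowest member. Lymph node markers in sgTaz tumor 5, the read-through gene over C2 and Cfb and the sequence shared by C4a and C4b limit the values named beside them.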

Other observations

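Genes of the response to interferon gamma, a list written with earlier results known, were described because interferon gamma is a known inducer of C4 and factor B. Of 20 genes, 17 had a positive log2 fold change, where 47.0% of all genes did, with a median of 0.30, and 0.31 without sgTaz tumor 5. DESeq2 called 7 as higher (3.28% of all genes it tested), among them Gbp2, Gbp3, Gbp4, Gbp5, Cxcl9 and Igtp, and edgeR called 0, with 11 at an unadjusted p below 0.05 (9.86% of all genes). Gbp4, a GTPase induced by interferon, was at 368 ± 50.9 CPM (SD, n = 5) in sgCon and 544 ± 75.5 CPM (SD, n = 5) in sgTaz tumors, and all 5 sgTaz tumors were above all sgCon tumors (log2 fold change 0.56 ± 0.12, SE, adjusted p = 0.0824 by edgeR). The groups did not overlap for Gbp2 either, as for 2.44% of all genes in this direction. Whether interferon gamma had a part in the levels of C4b, Cfb or any other member was not tested.

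Of 16 genes of the acute phase and NF-kappa B response, led by Lcn2, 2 had a positive log2 fold change (47.0% of all genes) and 14 a negative one, with a median of -0.15 and 0 calls by edgeR or DESeq2 (3 lower at an unadjusted p below 0.05 in edgeR, as were 11.9% of all genes). C3 and Cfb, often counted among such genes, had log2 fold changes of 0.21 and 0.15, neither past the threshold.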
